A study of Drosophila melanogaster with 2 samples.

Results

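The genes described are the Enhancer of split complex, E(spl), and its neighbour groucho (gro) on chromosome arm 3R, as they appear in a chromatin immunoprecipitation and sequencing (ChIP-seq) experiment on Poxn (Pox neuro), a transcription factor of the paired-domain class with a part in sense organ development. They are 10 of 13968 protein-coding genes on the chromosome arms of the Ensembl BDGP6 annotation, and all 10 were matched by symbol. The group was chosen from the main-set peaks and signal values at these genes, so those values are described here and not tested. The samples were whole Drosophila melanogaster embryos, aged 0 to 24 h, of a strain carrying a GFP-tagged Poxn (Poxn-eGFP), so all embryonic cell types were mixed. There were 2 biological replicates in this 1 group, and no control library was analysed here. The sample descriptions give an antibody against GFP, whereas the antibody field names Poxn. The deposited data are peak lists on the dm6 build, each peak with the authors' signal value, an enrichment value. Its normalisation and the read depth are not stated in the labels or files used here. Signal values were used only to rank peaks within a list. The main set was the thresholded list of the pair of replicates, 1488 peaks drawn from 146020 ranked candidates. A conservative list of the pair held 1353 peaks, replicate 1 alone 800 and replicate 2 alone 979.

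In the Notch pathway, a ligand such as Delta or Serrate on a neighbouring cell activates the receptor Notch, whose intracellular part enters the nucleus and joins the DNA-binding protein Suppressor of Hairless, Su(H), to switch on target genes. The E(spl) complex is the classic set of such targets. The members E(spl)mdelta-HLH, E(spl)mgamma-HLH, E(spl)mbeta-HLH, E(spl)m3-HLH, E(spl)m5-HLH, E(spl)m7-HLH and E(spl)m8-HLH, here mδ, mγ, mβ, m3, m5, m7 and m8, encode basic helix-loop-helix (bHLH) repressors of the Orange type, which hold back proneural genes. The members E(spl)malpha-BFM and E(spl)m4-BFM, here mα and m4, encode Bearded family proteins, small inhibitors of the ubiquitin ligase Neuralized, which acts on the ligands. The gene gro encodes a corepressor without a DNA-binding domain of its own, which the bHLH repressors recruit through a short motif at their C terminus.

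The main set held 4 peaks in the region, which ran from 5 kb before mδ to 5 kb after gro (chr3R:25992621-26054911, 62.3 kb). Each was 304 bp wide. The windows of 100 bp to either side of their summits are printed first, in the order of the chromosome, because they hold the sequence under the ChIP signal. The 250 bp upstream of m3, m7 and m8 follow. The m3 sequence starts just beyond the m3 summit window, and m7 and m8 are members with no main-set peak, of which m8 holds Su(H) and proneural words upstream and m7 proneural words. Capitals mark, on either strand, E-boxes (CANNTG, the word bound by bHLH proteins), TATAAA (the TATA box), GAGAG (bound by the GAGA factor), CGATA (bound by the insulator protein BEAF-32) and GTGGGAA (a high-affinity Su(H) word). All sequences are from RefSeq, Release 6, the assembly of dm6.
mγ peak (dm6 chr3R:26000214-26000414, + strand): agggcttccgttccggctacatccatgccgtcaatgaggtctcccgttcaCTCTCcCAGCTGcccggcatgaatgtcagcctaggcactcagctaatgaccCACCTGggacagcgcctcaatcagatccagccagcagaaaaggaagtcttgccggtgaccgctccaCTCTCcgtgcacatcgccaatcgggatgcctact
mβ–mα peak (dm6 chr3R:26008964-26009164, + strand): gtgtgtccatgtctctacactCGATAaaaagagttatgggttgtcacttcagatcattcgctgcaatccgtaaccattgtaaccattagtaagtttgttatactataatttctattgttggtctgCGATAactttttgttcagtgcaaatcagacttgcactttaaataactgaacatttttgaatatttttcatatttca
m3 peak (dm6 chr3R:26021366-26021566, + strand): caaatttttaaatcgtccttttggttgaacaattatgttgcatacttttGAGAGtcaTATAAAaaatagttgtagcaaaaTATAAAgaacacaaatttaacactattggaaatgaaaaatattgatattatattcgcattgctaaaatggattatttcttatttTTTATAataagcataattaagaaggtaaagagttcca
gro peak (dm6 chr3R:26042402-26042602, + strand): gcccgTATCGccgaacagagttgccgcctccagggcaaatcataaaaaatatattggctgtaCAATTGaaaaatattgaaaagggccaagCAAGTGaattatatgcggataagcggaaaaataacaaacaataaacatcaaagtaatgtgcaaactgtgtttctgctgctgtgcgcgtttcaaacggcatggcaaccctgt
m3 upstream (dm6 chr3R:26021573-26021822, + strand): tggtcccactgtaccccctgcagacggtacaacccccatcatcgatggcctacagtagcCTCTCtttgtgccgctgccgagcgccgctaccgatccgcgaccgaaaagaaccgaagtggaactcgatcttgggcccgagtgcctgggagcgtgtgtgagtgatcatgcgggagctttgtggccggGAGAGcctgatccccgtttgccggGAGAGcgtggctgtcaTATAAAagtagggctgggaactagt
m7 upstream (dm6 chr3R:26036788-26037037, + strand): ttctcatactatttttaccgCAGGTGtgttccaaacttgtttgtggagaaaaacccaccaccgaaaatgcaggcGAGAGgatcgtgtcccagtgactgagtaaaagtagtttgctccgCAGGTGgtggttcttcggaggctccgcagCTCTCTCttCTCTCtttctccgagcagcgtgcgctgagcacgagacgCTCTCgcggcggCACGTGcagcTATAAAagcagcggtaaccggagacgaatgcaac
m8 upstream (dm6 chr3R:26039990-26040239, + strand): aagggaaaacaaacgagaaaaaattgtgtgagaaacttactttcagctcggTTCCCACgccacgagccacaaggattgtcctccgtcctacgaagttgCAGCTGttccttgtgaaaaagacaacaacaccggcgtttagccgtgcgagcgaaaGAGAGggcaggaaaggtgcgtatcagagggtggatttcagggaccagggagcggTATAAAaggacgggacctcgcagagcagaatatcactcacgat

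The peaks were spread over the complex and not clustered at a single gene. In the direction of the chromosome they lay in the coding exon of mγ, between mβ and mα, upstream of m3 and at the start of gro. Their summits were 8750, 12402 and 21036 bp apart. The longest of these gaps held m4, m5, m7 and m8, none of which had a main-set peak within 500 bp of its TSS. The nearest main-set peaks outside the region were 262 kb away towards lower coordinates and 79.5 kb away towards higher ones. The region thus had 6.42 main-set peaks per 100 kb, against 1.05 per 100 kb over the chromosome arms. When the arms were tiled with 2203 windows of the same length, 2.45% of windows (54) held at least as many main-set summits and 38.5% (849) held at least 1. The region was picked for its peaks, so this rank is a description. Candidates of any signal were closer to the average of the arms, with 73 in the region, or 1.17 per kb, against 1.04 per kb over the arms. Replicate 1 had 56 candidates in the region, or 0.899 per kb, against 0.752 per kb over the arms. Replicate 2 had 57, or 0.915 per kb, against 0.751 per kb.

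**Figure D1:**
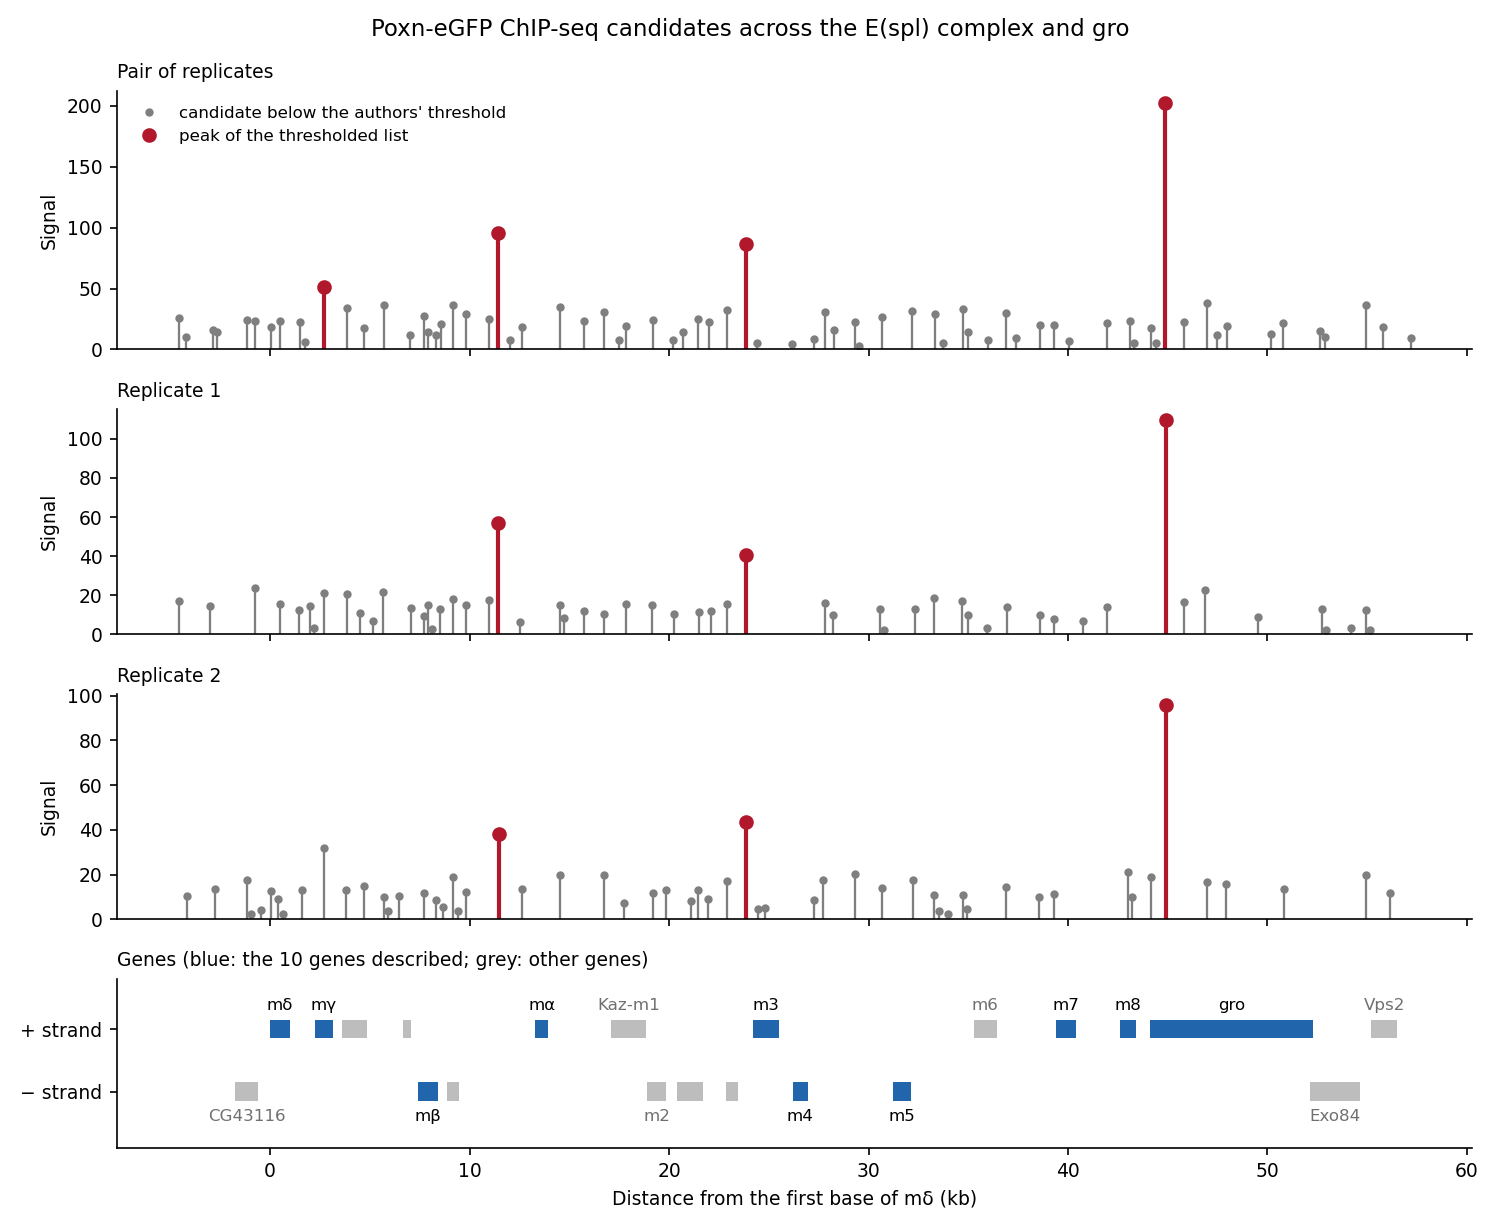
Signal of every ranked candidate (vertical axis, authors' signal value, separate scale for each list) against distance from the first base of mδ in kb, for the pair of replicates, replicate 1 and replicate 2, with the genes of either strand as bars below. Red marks peaks of the thresholded lists: 4 in the pair's list and 3 in each replicate, where the candidate in mγ stays grey.

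Among the bHLH genes, m3 had the strongest peak. The peak at chr3R:26021314-26021617 had its summit in intergenic sequence 357 bp upstream of the transcription start site (TSS) of m3, which is transcribed from the + strand. Its signal was 86.3 in the pair's list, rank 671 of 1488. In the lists of the single replicates the overlapping peak had a signal of 40.6 in replicate 1, rank 676 of 800, and 43.6 in replicate 2, rank 766 of 979. The peak was thus present in both replicates, in the lower part of both lists, and the summits of the replicates lay 0 and 1 bp from that of the pair. The summit was also 390 bp upstream of the lncRNA gene CR43644 on the opposite strand, so the peak lay between a pair of divergent start sites, and the distance to m3 does not assign it to m3 alone.

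The mγ peak was the weakest of the 4 and was in the thresholded list of neither replicate. It spanned chr3R:26000162-26000465, and its summit lay 463 bp downstream of the mγ TSS, at base 372 of the 615 bp coding sequence of this gene of 1 exon. Its signal was 51.6, rank 1403 of 1488. The overlapping candidate had a signal of 21.2 in replicate 1, at the 93.1 percentile of that ranked list, and 32.0 in replicate 2, at the 98.5 percentile. A percentile here is the share of a list's entries with a signal at or below the given one. The IDR score, a scale of 0 to 1000 that the authors derived from the irreproducible discovery rate (IDR), was 193 in replicate 1, 770 in replicate 2, 695 in the conservative ranked list and 867 in the pair's list. No thresholded list held a peak with a score under 830. The call at mγ therefore rests on the pair's list alone. Summits in coding exons were uncommon in the main set on 3R, at 11 of 300 (3.67%), with 127 in intergenic sequence and 132 in introns. Among the region's candidates of any signal in the pair's list they were common, at 21 of 73 (28.8%). Because E(spl) genes are paralogues, the peak's sequence was compared with the others: its longest exact run shared with another E(spl) gene was 11 bp, with E(spl)m2-BFM and m4, and among the bHLH genes 10 bp, with m8.

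The other bHLH members, mδ, mβ, m5, m7 and m8, had only candidates under the authors' threshold within 500 bp of their single TSS. The strongest of these was at m5, 87 bp upstream by its summit. It had a signal of 31.7 in the pair's list, at the 90.2 percentile, and reached the 62.7 percentile in replicate 1 and the 85.5 percentile in replicate 2. At m8 the candidate lay in the coding exon, 467 bp downstream of the TSS, with a signal of 23.4 at the 73.1 percentile. Replicate 2 had a candidate there with a signal of 21.3, at the 93.4 percentile, and replicate 1 had none. At m7 the candidate was 102 bp upstream of the TSS, with a signal of 19.7 at the 60.7 percentile, and it stood at the 25.6 percentile in replicate 1 and the 54.9 percentile in replicate 2. So m8 and m7, whose upstream sequences are printed above, had no candidate that ranked high in both replicates. At mδ the signal was 23.4, at the 73.0 percentile, 479 bp downstream of the TSS. The overlapping candidate of replicate 1 lay just past the window, 503 bp downstream, at the 76.7 percentile. In replicate 2 the strongest candidate in the window was another, 25 bp downstream of the TSS, at the 61.6 percentile. At mβ the signal was 21.0, at the 65.6 percentile, 149 bp upstream of the TSS. The strongest candidate in the window was elsewhere in each replicate. In replicate 1 it was 483 bp downstream, at the 74.5 percentile, and that of replicate 2 was 95 bp downstream, at the 34.2 percentile. Upstream of the TSS, replicate 1 had a candidate at the 61.6 percentile and replicate 2 one at the 14.4 percentile.

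In the pair's list the Bearded family members had the least signal at their start sites. No candidate lay within 500 bp of the mα TSS in the pair's list or in that of either replicate, and the conservative ranked list had a candidate with a signal of 3.96 at the 4.53 percentile. At m4 the signal was 8.65, at the 18.5 percentile, with no candidate in replicate 1 and the 36.3 percentile in replicate 2. Yet mα was the gene with the nearest start to the second strongest peak of the region. This mβ–mα peak, at chr3R:26008912-26009215, had its summit in intergenic sequence 1829 bp upstream of mα, 1991 bp upstream of the lncRNA gene CR45039 and 3041 bp upstream of mβ. Its signal was 96.0 in the pair's list, rank 554 of 1488. In replicate 1 the peak had a signal of 57.1, rank 387 of 800, and in replicate 2 a signal of 38.3, rank 894 of 979. It thus stood near the middle of the list of replicate 1 and near the end of that of replicate 2, where its summit was also shifted by 46 bp, against 7 bp in replicate 1.

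The strongest peak of the region by far was at gro. It spanned chr3R:26042350-26042653 with a signal of 203, rank 149 of 1488, and had a signal of 110 in replicate 1, rank 107 of 800, and of 96.0 in replicate 2, rank 198 of 979. It was first among the region's candidates in both replicates. The gene has 4 start sites in the annotation, and the summit lay among them. It was 766 bp downstream of the first TSS, which 6 of 10 transcripts use, 422 bp downstream of the TSS of gro-RA and gro-RD, 139 bp upstream of that of gro-RF and 318 bp upstream of that of gro-RC. The summit was therefore intronic for the transcripts that start earlier and upstream of those that start later. The nearest main-set summit to the m8 TSS, 2262 bp away, was this same peak. Further along gro, the strongest candidate under the threshold lay in a coding exon 1763 bp downstream of the last TSS, with a signal of 38.1.

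**Figure D2:**
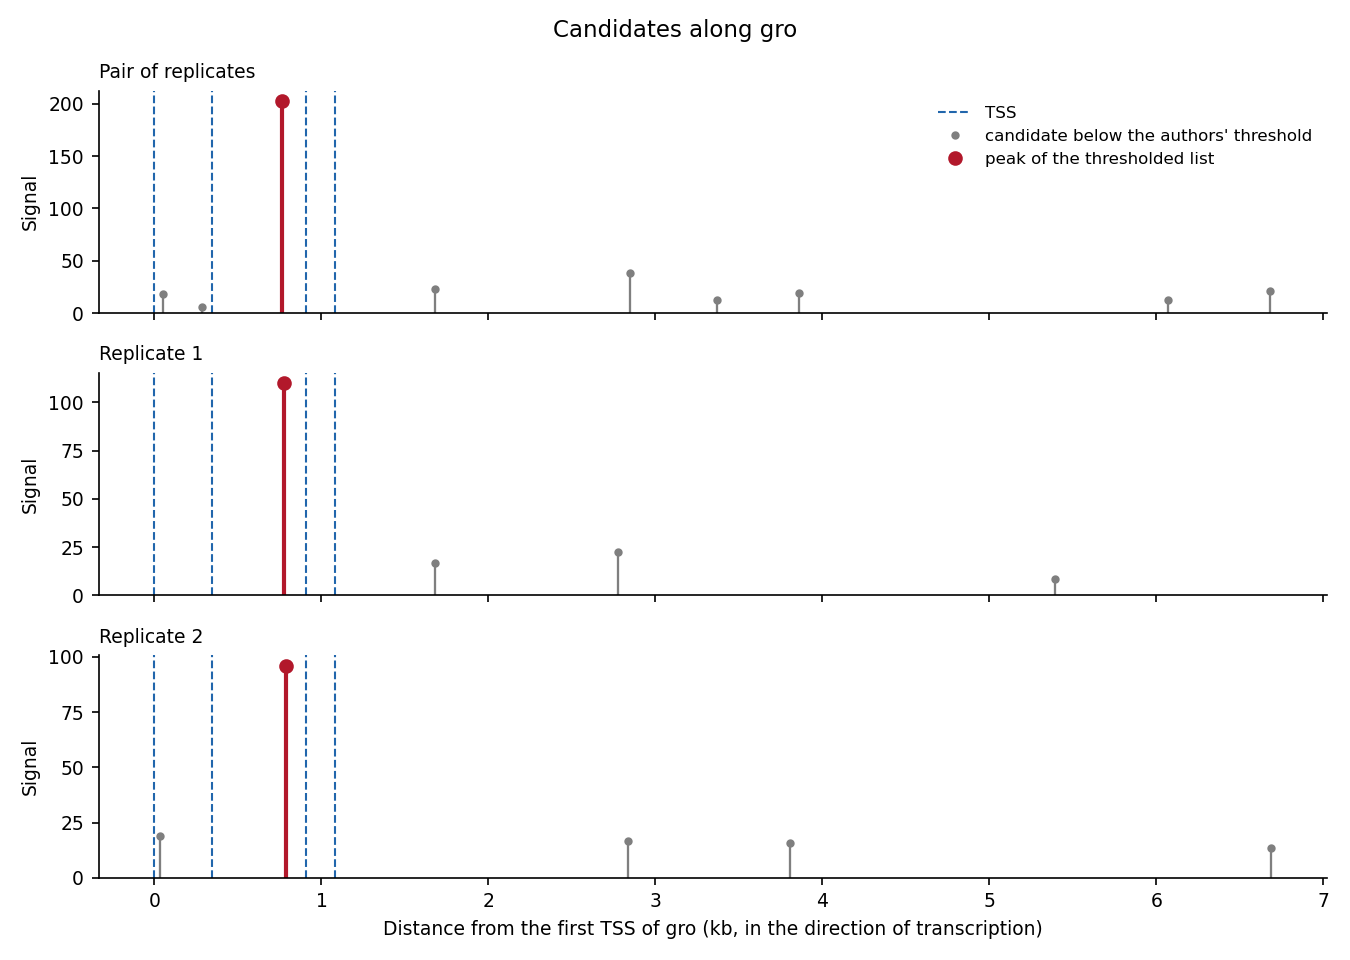
Signal of the ranked candidates along gro (vertical axis, authors' signal value) against distance from its first TSS in kb, for the pair of replicates, replicate 1 and replicate 2, with dashed lines at the 4 start sites. The red peak lies between the second and the third TSS in all 3 panels, with signals of 203, 110 and 96.0, and the grey candidates further into the gene stay at or below 38.1.

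Set side by side, the thresholded lists kept the gro peak in the upper part and differed on the order of the next ones. The gro peak was at the 90.1 percentile of the main set, the 86.8 percentile of replicate 1 and the 79.9 percentile of replicate 2. The mβ–mα peak was at the 62.8, 51.8 and 8.78 percentiles of the same lists, and the m3 peak at the 55.0, 15.6 and 21.9 percentiles. In replicate 1 the mβ–mα peak ranked above the m3 peak, and in replicate 2 below it. The mγ peak was at the 5.78 percentile of the main set. With 2 replicates and no read depth, these shifts cannot be set against a sampling error.

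**Figure D3:**
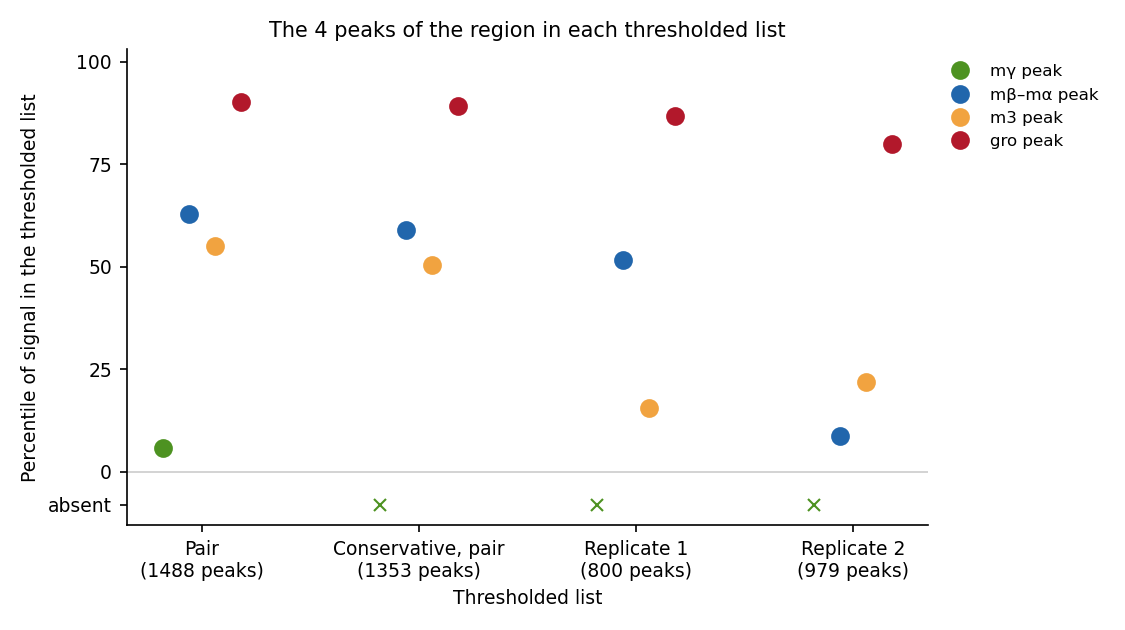
Percentile of signal (vertical axis, 0 to 100) of the 4 peaks of the region within each thresholded list (horizontal axis, number of peaks in brackets), with crosses where a list does not hold the peak. The gro peak is between the 79.9 and 90.1 percentiles in every list, and the mγ peak is in the pair's list alone.

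Counted by gene, 3 of the 10 members (mγ, m3 and gro) had a main-set summit within 500 bp of a TSS. Over all protein-coding genes on the arms the share was 7.72% (1079 of 13968). The gro call depends on its later start sites. With the 5′ end of each gene model alone, gro was not called and 2 members (mγ and m3) were, against 6.62% of all genes. In the conservative list 2 members (m3 and gro) had one, against 7.14% of all genes. The same 2 members had one in replicate 1, against 4.37% of all genes, and in replicate 2, against 6.17%. Within 250 bp of a TSS the count was 1 member (gro), against 6.19% of all genes. The member nearest to the limit on the inside was mγ, at 463 bp, and the nearest on the outside was mα, at 1829 bp. By the −log10 of the global IDR, the mγ peak had 2.09, and the best candidate of the region under the authors' threshold, 718 bp upstream of the mγ TSS, had 0.739. Among candidates under the threshold in the pair's list, the nearest beyond the distance limit at a member was 505 bp upstream of the mγ TSS, with a signal of 5.80.

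Candidates of any strength were present near most members, as near most genes. In the pair's ranked list 9 of 10 members had a candidate within 500 bp of a TSS, against 77.5% of all protein-coding genes (10822). The median percentile of the strongest such candidate was 73.1 for the 9 members and 75.7 for all genes with a candidate. Replicate 1 had a candidate at 6 of the 10 members, against 68.2% of all genes, and replicate 2 at 9, against 65.8%. In the replicates the members' median percentile was the higher one. It was 83.8 against 71.5 for all genes with a candidate in replicate 1, and 85.5 against 73.5 in replicate 2. Of the region's candidates, 39 of 56 in replicate 1 (69.6%) overlapped a candidate of replicate 2, against 60.9% over the arms. In the other direction, 39 of 57 in replicate 2 (68.4%) overlapped a candidate of replicate 1, against 61.2% over the arms.

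**Figure D4:**
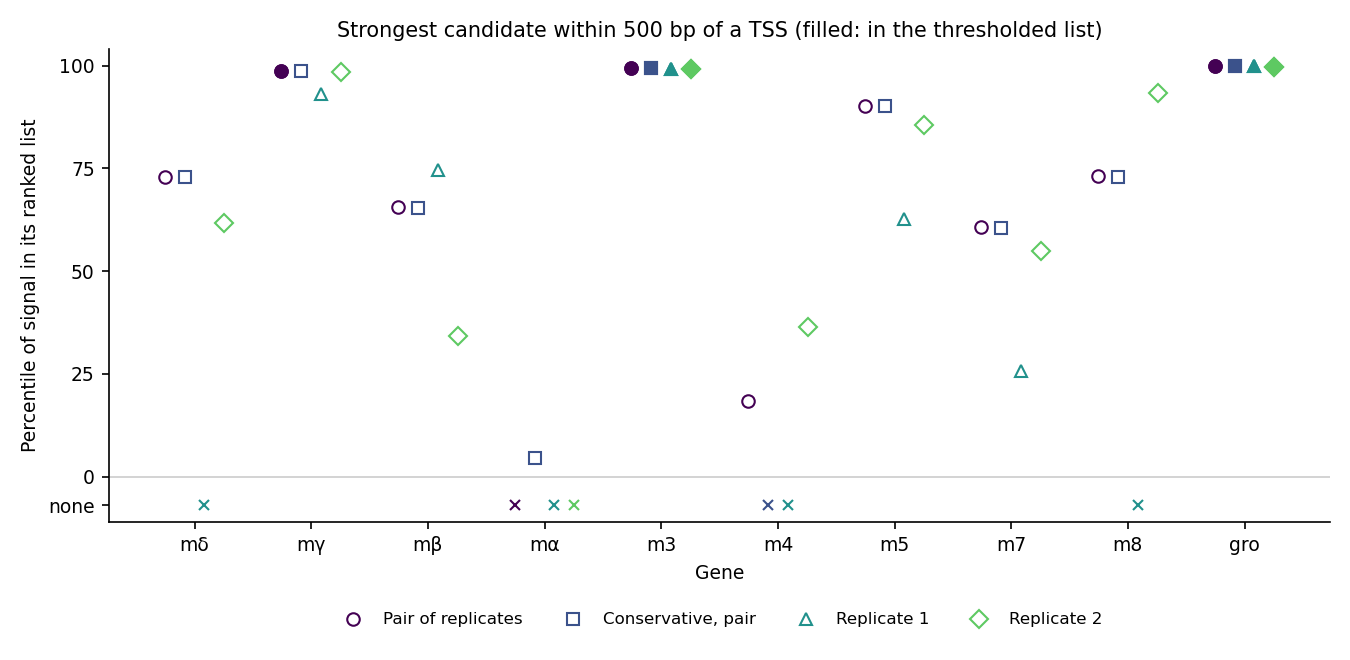
Percentile of signal, within its ranked list, of the strongest candidate within 500 bp of a TSS (vertical axis, 0 to 100, or none) for the 10 members in chromosome order, with a symbol for each of the 4 ranked lists, filled where the candidate is in the thresholded list. Both m3 and gro are filled in all 4 lists and mγ in the pair's list alone, while mα has a symbol above none in the conservative list only.

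No other gene of the region had a further peak. There were 12 other genes, 6 protein-coding and 6 lncRNA genes. Of these, CR43644 alone had a main-set summit within 500 bp of its TSS, the peak it shares with m3. The protein-coding genes inside the complex that are not members, 3 in number, had only candidates under the threshold. The strongest candidate within 500 bp of the TSS had a signal of 30.5 at Kaz-m1, which encodes a protein of the Kazal protease inhibitor family, 7.40 at E(spl)m2-BFM and 14.0 at E(spl)m6-BFM, both of the Bearded family. Next to gro, Exo84, which encodes an exocyst subunit, and Vps2, which encodes an endosomal sorting protein, shared a candidate with a signal of 36.6. At CG43116, beside mδ, the signal was 23.5. The lncRNA gene CR45039 had a candidate with a signal of 36.7, and those of CR45037, CR45038, CR45040 and CR43643 had 33.9, 12.03, 18.9 and 24.6.

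The 4 summit windows differed widely in base composition. Their GC content was 58.7% at mγ, 32.8% between mβ and mα, 23.4% at m3 and 41.8% at gro, against a median of 34.8% over the 1449 main-set summits on the arms and 46.3% over all candidates there. The mγ window was among the most GC-rich of the main set, with 27 of 1449 windows at or above it, and the m3 window among the most AT-rich, with 25 at or below it. The promoters of the 9 E(spl) members, taken from 250 bp upstream to 50 bp downstream of the TSS, were GC-rich, from 49.3% at m8 to 59.0% at m3, against a median of 38.0% over all promoters, and that of gro had 42.0%. At m3, then, an AT-rich peak adjoined the most GC-rich promoter of the group, as the printed sequences show.

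**Figure D5:**
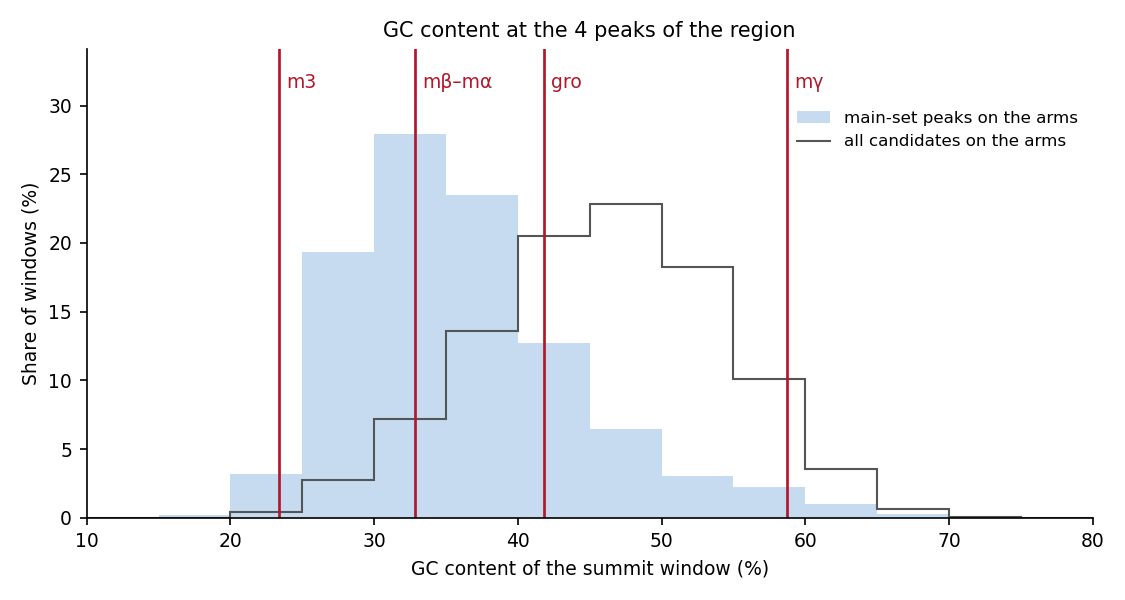
Share of summit windows (vertical axis, percent) by GC content in bins of 5 percentage points (horizontal axis, percent), for main-set peaks on the arms (filled) and all candidates on the arms (line), with red lines at the 4 peaks of the region. The m3 window (23.4%) and the mγ window (58.7%) lie towards opposite ends of the main set.

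Short words differed among the 4 windows as well. E-boxes stood in the windows of mγ and gro, with 2 in each, against 57.8% of main-set windows and 67.0% of candidate windows with at least 1. In mγ they began 44 bp before the summit and 1 bp after it, and the first is part of GCAGCTG, a form that proneural proteins bind, which 2.83% of main-set windows hold. In gro they began 38 and 10 bp before the summit. The mβ–mα window had 2 CGATA words and the gro window 1, against 26.5% of main-set windows and 20.1% of candidate windows. The m3 window had TATAAA 3 times, against 35.4% of main-set windows with at least 1, and TAATTA, a homeodomain word, once, against 17.5%. GAGAG stood in the mγ and m3 windows, against 21.5% of main-set windows. GTGGGAA was in none of the 4 windows, against 1.93% of main-set windows and 2.77% of candidate windows. GTCACGC, a core word of the Pax2/5/8 class of paired domains, was in none of them, against 17 of 1449 main-set windows and 1726 of 143270 candidate windows. Neither CACNAG (the N-box, to which E(spl) bHLH proteins bind) nor CACGNG (the related class C word) was in any of the 4, against 19.9% and 9.73% of main-set windows. These are matches of letters on both strands and not sites.

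Words were also counted in the promoters at each member's 5′ end. GTGGGAA was in the promoters of m4, m5 and m8, 3 of 10, against 3.59% of all 13968 promoters. None of these 3 members had a main-set summit within 500 bp of a TSS, but few genes did: 3 of the 10 members and 7.72% of all genes. A facing pair of the looser word GTGNGAA, with 10 to 25 bp between them, was in the promoter of m8, beginning 223 bp upstream of the TSS with a gap of 17 bp, and in 8 of 13968 promoters in all. Of the proneural forms, GCAGCTG was in the promoter of m8 and GCAGGTG in those of m4 and m7, against 6.13% and 2.77% of all promoters. The promoter of the second gro TSS, the one of gro-RA and gro-RD, and the mγ summit window held GCAGCTG as well. TATAAA was in 7 of 10 members' promoters, against 45.8%, and GAGAG in 6, against 29.7%. CACNAG and CACGNG were in 4 each, against 29.7% and 18.6%, and E-boxes in 6, against 77.2%. The counts by member take gro at its first TSS only, whereas gro was called by its later start sites. At the TSS of gro-RA and gro-RD the promoter also held 3 E-boxes, 1 class C word, the TATA box once and 7 matches of the GAGA factor word. Those of gro-RF and gro-RC had 2 E-boxes each, with 1 BEAF-32 word at gro-RF and 1 N-box at gro-RC. The gro promoter at the first TSS had a different set. It held TATCGAT, a word of the factor DREF, which 18.2% of promoters hold. It also held 3 CGATA words, the second of which overlaps TATCGAT, and a TAATTA word. Of all promoters, 47.3% hold CGATA and 20.4% hold TAATTA. None of the 10 held GTCACGC, which 210 of 13968 promoters hold. GGTCACA, a core word of the factor M1BP, was in that of m4 only, against 9.69%.

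Peaks at the rest of the Notch pathway and at related regulators were counted over 5 lists. Of 46 matched genes, 5 had a main-set summit within 500 bp of a TSS, against 7.72% of all genes. In the Notch pathway list of ligands, receptor, processing enzymes and modifiers, 3 of 22 had one, against 7.72% of all genes. The gene numb, which encodes a Notch inhibitor of asymmetric cell division, had a signal of 169 in the pair's list, 81.3 in replicate 1 and 89.0 in replicate 2. At rumi, which encodes the enzyme that adds glucose to Notch, the signal was 93.6, with 43.9 in replicate 1 and 50.2 in replicate 2, where the candidate was not in the thresholded list. At aph-1, a subunit gene of the γ-secretase that cleaves Notch, it was 85.8 with 49.8 in replicate 1, but the summit, 415 bp from the aph-1 TSS, was nearer to that of Snx21 (153 bp) and no thresholded peak of replicate 2 overlapped it.

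The receptor and ligands themselves had no such peak. Of all genes 7.72% had one, so few or none would be held by so few genes at that share. N, the receptor gene, had a candidate at the 87.7 percentile, with the 97.1 percentile in replicate 1 but the 50.3 percentile in replicate 2. The ligand gene Ser had one at the 73.0 percentile, and the ligand gene Dl none within 500 bp of a TSS. Su(H) stood at the 87.7 percentile and neur, which encodes Neuralized, at the 92.1 percentile. The highest genes of this list without a main-set peak were mam, at the 98.2 percentile, and Su(dx), at the 98.0 percentile. Over the list, 19 of 22 genes had a candidate, against 77.5% of all genes. Their median percentile was 87.7, against 75.7 for all genes with a candidate.

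The lists of repressors and their targets were short. None of 5 other bHLH-Orange genes, 4 other Bearded family genes or 9 proneural and related genes had a main-set summit within 500 bp of a TSS, where 7.72% of all genes had one, so lists of this length would hold few or none at that share. Candidates were near 3, 4 and 6 of them, against 77.5% of all genes, with median percentiles of 93.2, 59.4 and 50.4. The highest of these was at dpn, which encodes the repressor Deadpan, at the 98.2 percentile in the pair's list and in replicate 1 at the 98.3 percentile, but at the 50.4 percentile in replicate 2. Of 6 further corepressor genes 2 had a peak, against the same 7.72%. Candidates were near 4 of the 6, with a median percentile of 99.0. Sin3A had no main-set peak there, but its candidate was at the 99.1 percentile in the pair's list. It stood at the 99.0 percentile in replicate 1 and the 98.2 percentile in replicate 2. At ebi, which encodes a WD-repeat protein of corepressor complexes, the signal was 113, with 55.4 in replicate 1 and 61.4 in replicate 2, although its summit was nearer to the TSS of AP-2alpha (121 bp) than to that of ebi (169 bp). At Gug, which encodes the corepressor Atrophin, the signal was 55.6, and like the mγ peak it was in neither the conservative list nor that of either replicate. The gro peak, at 203, was above all 5.

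The genes most like each member in signal were found by the smallest Euclidean distance between their percentiles in the 4 ranked lists, among 1067 protein-coding genes with a main-set summit within 500 bp of a TSS and a value in all 4 lists. For gro they were bowl, which encodes a zinc finger protein of the odd-skipped family, CG31612 and CG17726, with signals of 209, 196 and 206 in the pair's list, against 203 at gro. For m3 they were CG4022 and Cpsf5, a pre-mRNA cleavage factor gene, which share 1 peak with a signal of 87.4, and CG10802 with 84.9, against 86.3 at m3. For mγ they were AsnRS, a tRNA synthetase gene, and DCTN6-p27, a dynactin subunit gene, which share 1 peak with a signal of 51.8, and EMC5 with 54.8, against 51.6 at mγ. None of these 9 is in the gene lists above. The AsnRS peak stood at the 92.8 percentile in replicate 1 and at the 98.8 percentile in replicate 2. Its likeness to the mγ candidate follows from the choice by these percentiles and is no separate result.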

How the data were processed

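ChIP-seq peak lists were analysed for 2 biological replicates of whole Drosophila embryos. Per the file headers and notes deposited with them, the lists are on dm6, made from filtered alignments. The aligner, the peak caller, the IDR threshold and the read depth are not stated in the labels or files used here. As deposited, the signal is an enrichment value. The score, from 0 to 1000, was scaled from the IDR by the authors, and the deposited −log10 of the global IDR was read for each candidate.

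Each summit was set against the TSSs of 24254 Ensembl (release 115) BDGP6 gene models, of which 13968 were protein-coding on the arms. A gene was called with a main-set summit within 500 bp of any TSS. Peaks overlapped if they shared at least 1 bp. Words were searched in windows of 100 bp to either side of each summit and in promoters cut from the RefSeq genome at the Ensembl 5′ ends, in place of the RefSeq promoter table that had been planned. Of 48 listed genes 46 were matched, and the others were not analysed here. With 1 group and members chosen from these peaks, no test was made. Genes were named by rule: all members, all genes of the region, up to 4 called genes per list by signal, and the 3 nearest percentile patterns per member with a peak. N, Ser, Dl, Su(H), neur, mam, Su(dx), dpn, Sin3A and the neighbours Snx21 and AP-2alpha fall outside this rule and were chosen after their values were seen. The members, lists and words were chosen with earlier results of these data known. Python 3.11.15, pandas 2.3.3 and numpy 2.4.6 were used, and the procedures were tested on simulated data. The alternatives were other peak lists, each replicate alone, a higher signal, other TSS windows, flanks and overlaps.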

Additional observations from a re-analysis of the deposited data

How the results depend on the processing

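Of 41 alternative values for the main results, 35 stayed within 1.5 times the value reported, and 6 did not. The members with a main-set summit within 500 bp of a TSS numbered 3 in the main set and 2 (m3 and gro) with either replicate left out. With the 5′ end of each gene model only they numbered 2 (mγ and m3, without gro), against 6.62% of all genes. With a TSS window of 250 bp there was 1, against 6.19% of all genes. The share of all protein-coding genes ranged from 4.37% to 6.17% when a replicate was left out, and was 4.67% for peaks at or above the main-set median signal, against 7.72%. The Notch pathway and related genes, 5 in the main set, ranged from 3 to 4 when a replicate was left out and were 3 when only the 5′ end of each gene model was used. Words found at the 3 members with a peak, each word counted once per member, numbered 8 in the summit windows, against 5 in the promoters. The cause was not tested, other than that fewer start sites or peaks enter by construction. Of 12 percentiles of single peaks in other ranked lists, 5 moved by more than 1.5 times in their distance from 100. The percentiles themselves changed far less. Among the 5 were mγ in replicate 1 (93.1 against 98.7) and gro in replicate 2 (99.80 against 99.89). No paired analysis was possible because there is 1 group and no test. Read depth is not known, so an absent peak means only that it was not called.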
